A study of Mus musculus with 18 samples.

Results

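The transcripts described here are those of the SOCS feedback inhibitors *Cish*, *Socs1*, *Socs2* and *Socs3* and of the PIM kinases *Pim1*, *Pim2* and *Pim3*, genes widely described as targets of STAT5. The members were chosen by symbol from a list of 7 genes, and the expression of 6 of them was analysed among 20298 genes; that of *Pim2* was not analysed here. RNA was sequenced from 18 libraries of C57BL/6 mouse monocytes, in 6 groups of 3. WT monocytes and monocytes of double knock-in (DKI) mice were taken untreated (day 0) or as monocyte-derived cells (MDCs) after 3 or 6 days in culture with 20 ng/mL GM-CSF. DKI mice carry N-domain mutations in both *Stat5a* and *Stat5b*, present in all cells rather than in monocytes alone, with which STAT5 forms dimers but no tetramers. Day 0 cells received no GM-CSF, so that time and GM-CSF cannot be told apart.

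The deposited values are RPKM, reads per kilobase of gene, scaled to the mapped reads of the library, and the libraries held between 29.5 and 43.2 M mapped reads (median 36.4 M). Liver is the tissue in the sample labels, but the study describes bone marrow monocytes. Hepatocyte markers summed to at most 0.634 RPKM in any library, with *Alb*, *Ttr* and *Serpina1a* at 0 in each group, and the monocyte marker *Ly6c2* averaged 1446 RPKM in WT and 1365 RPKM in DKI cells on day 0. Neutrophil markers were present in all groups (7 of 7 in the table, none at 0 over a whole group), and their sum ranged from 979.7 to 1342 RPKM in WT and from 964 to 1381 RPKM in DKI cells on day 0, from 110.0 to 748 RPKM in WT and from 775 to 1405 RPKM in DKI MDCs on day 3, and from 101 to 500.4 and from 481 to 873 RPKM on day 6. A mean above 2 RPKM was reached by 6 of the 7 in WT MDCs on day 3, by 4 in WT MDCs on day 6 and by 7 in each other group. In MDCs *Mmp8* made up much of the sum. It averaged 199 RPKM in WT and 795 RPKM in DKI on day 3, and 224 and 537 RPKM on day 6. The sums of 5 monocyte markers overlapped on day 0 (2358 to 3247 RPKM in WT and 2574 to 3059.6 RPKM in DKI) and were also higher in DKI MDCs, at 1464 to 2415 against 799 to 1191 RPKM on day 3 and at 1378 to 1705 against 622 to 1125 RPKM on day 6. The sums of 4 basophil and mast cell markers were lower in DKI MDCs without overlap, at 11.8 to 30.96 against 31.4 to 40.0 RPKM on day 3 and at 17.3 to 27.9 against 36.4 to 124 RPKM on day 6, and overlapped on day 0 (8.55 to 62.1 RPKM in WT and 16.4 to 30.6 RPKM in DKI); *Fcer1a* was at 0 in DKI MDCs on day 6. The sums of 5 B cell markers were at most 7.096 RPKM in DKI and 0.736 RPKM in WT MDCs, higher in DKI without overlap on both days. The part of these markers in the results below was not tested, and in bulk RNA fewer cells of a type and less RNA per cell cannot be told apart.

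GM-CSF binds a receptor of an α chain and a shared β chain, and the kinase JAK2 at the β chain phosphorylates STAT5, which enters the nucleus and binds DNA as dimers or, at adjacent sites, as tetramers. CISH and the SOCS proteins are made in response to this signal and close the loop: each has an SH2 domain that binds phosphorylated receptors or JAKs, and a SOCS box that recruits a ubiquitin ligase. SOCS1 and SOCS3 can also inhibit JAK activity directly. The PIM proteins are serine/threonine kinases that act in survival and growth of blood cells and are controlled largely by how much of them is made.

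The core STAT5 site has the letters TTCNNNGAA, which read the same on both strands, and it was searched in RefSeq promoter windows of GRCm38.p6 that run from 250 bases before to 50 bases after an annotated start. Windows were found for 6 of the 7 genes, all but *Socs2*. The 2 windows that hold the letters are shown as stretches of 30 bases, 5′ to 3′ on the strand of the gene, with the matches in capitals, because tetramers are described to form on paired sites.
*Cish* (chr9:107296654-107296683, plus strand): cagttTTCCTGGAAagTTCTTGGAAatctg
*Socs3* (chr11:117969501-117969530, minus strand): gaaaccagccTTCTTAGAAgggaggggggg
In *Cish*, 2 matches stood side by side with 2 bases between them, at bases 1 to 9 and 12 to 20 after the start. *Socs3* held 1 match, which began 154 bases before the annotated start used for its window (base 117969366), which lies downstream of the 5′ end of the whole annotated gene given below. The windows of *Socs1*, *Pim1* (2 windows), *Pim2* and *Pim3* held none. Of all 32851 windows, 8.3% held at least 1 match and 0.46% at least 2. A match is a description of these letters only, no binding was measured here, and sites outside the windows were not searched.

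**Figure D1:**
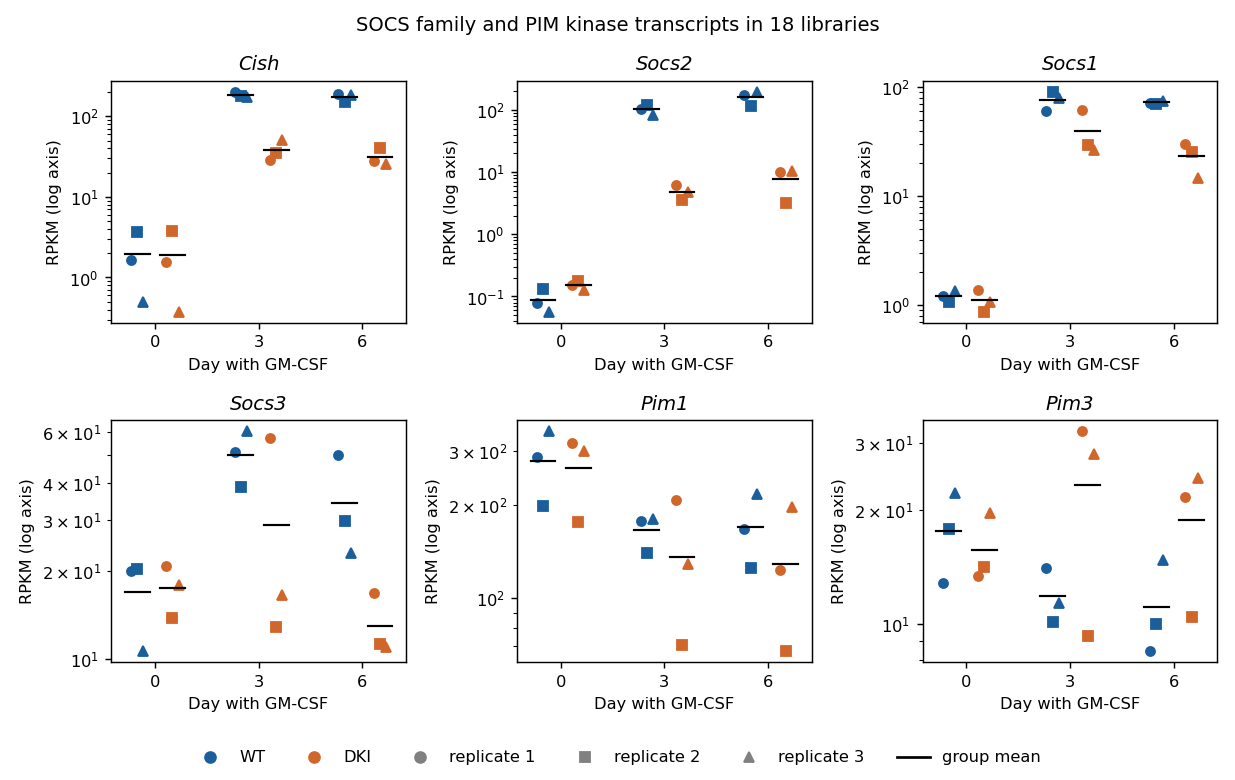
RPKM (log axis, with a separate range in each panel) of the 6 genes by day with GM-CSF, with 1 point per library, colours for genotype, shapes for replicate number and a black line at the group mean. On days 3 and 6 the WT and DKI libraries of Cish and Socs2 form separate groups, whereas those of Pim1 and Pim3 overlap on every day.

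Before stimulation the genes differed widely in level, and the WT and DKI libraries of each gene overlapped. *Pim1* (chr17:29490785-29496111) was the most abundant member, with 286, 199 and 347 RPKM in the 3 WT libraries and 317, 177 and 301 RPKM in the DKI libraries. *Pim3* (chr15:88862194-88865726) held 12.8, 17.8 and 22.2 RPKM in WT and 13.3, 14.1 and 19.6 RPKM in DKI. *Socs3* (chr11:117966079-117970336), which restrains signalling by receptors that use gp130 and by the G-CSF receptor, held 20.0, 20.3 and 10.7 RPKM in WT and 20.9, 13.9 and 17.9 RPKM in DKI. The genotypes overlapped for each of these 3 genes, and the ranges of *Pim3* and *Socs3* overlapped each other.

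The other SOCS genes were low at this stage. *Cish* (chr9:107296659-107302784) held 1.63, 3.66 and 0.497 RPKM in WT and 1.55, 3.78 and 0.376 RPKM in DKI monocytes, so that libraries of the same number resembled each other more than libraries of the same genotype. *Socs1* (chr16:10783808-10785536), an inhibitor of JAK kinases, held 1.22 ± 0.147 RPKM in WT and 1.11 ± 0.2496 RPKM in DKI (SD, n = 3). *Socs2* (chr10:95383903-95417321), best known for restraining growth hormone signalling, rested on 9, 15 and 5 reads in the WT libraries and on 16, 21 and 10 in the DKI libraries, at most 0.180 RPKM. Its DKI mean on day 0 was 1.71 times the WT mean, and it was higher in DKI in each of the 3 same-numbered pairs, on these few reads.

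Differences between genotypes were tested with limma on log2(RPKM + 1), for genes whose mean exceeded 2 RPKM in a compared group. A gene was called at a Benjamini-Hochberg adjusted p under 0.05 over all fitted genes and a fold change above 1.5. On this scale the change of low genes is understated. On day 0 limma called 0 of the 3 fitted members (*Socs3*, *Pim1* and *Pim3*) and 0% of all 9179 fitted genes, of which 44 had an unadjusted p under 0.05. Limma voom on reads recovered from the RPKM values and the replicate block also called 0 genes (34 and 352 with an unadjusted p under 0.05), whereas the fit of all 18 libraries called 6 genes, none of them a member. The groups did not overlap for 1.03% of the genes. The DKI minus WT log2 difference was 0.08 for *Socs3* (95% interval -0.61 to 0.77), -0.08 for *Pim1* (-0.81 to 0.66) and -0.14 for *Pim3* (-0.73 to 0.44). Fitted without the filter, *Cish* differed by -0.04 (95% interval -1.53 to 1.45), *Socs1* by -0.08 (-0.38 to 0.23) and *Socs2* by 0.08 (0.0032 to 0.16; limma adjusted p = 0.99999). With the replicate number as a block, the interval of *Cish* narrowed to -0.22 to 0.13 and that of *Socs2* to 0.04 to 0.12 (limma adjusted p = 0.945).

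With GM-CSF, *Cish* and *Socs2* were the members that differed most between the genotypes. *Cish*, the SOCS family member that is often used as a readout of STAT5 activity, held 200.1, 177 and 175 RPKM in WT MDCs on day 3 and 28.3, 35.2 and 51.0 RPKM in DKI MDCs. On day 6 it held 189, 151 and 186 RPKM in WT and 27.9, 40.0 and 25.8 RPKM in DKI. Each DKI library was below each WT library on both days, and the DKI mean was 20.7% of the WT mean on day 3 and 17.8% on day 6. The log2 difference was -2.28 ± 0.24 (SE) on day 3 (limma adjusted p = 0.0069) and -2.47 ± 0.21 on day 6 (limma adjusted p = 0.0067).

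*Socs2* showed the larger difference. It held 103, 121 and 82.0 RPKM in WT MDCs on day 3 and 6.11, 3.61 and 4.84 RPKM in DKI MDCs. On day 6 it held 177, 114.3 and 194 RPKM in WT and 9.90, 3.23 and 10.3 RPKM in DKI. The lowest WT value was thus several times the highest DKI value on either day, and the DKI mean was 4.75% of the WT mean on day 3 and 4.83% on day 6. The log2 difference was -4.14 ± 0.22 on day 3 (limma adjusted p = 0.0024), at rank 14 of 9740 fitted genes from the lowest, and -4.30 ± 0.43 on day 6 (limma adjusted p = 0.0080), at rank 8 of 9842. DKI MDCs were not without the transcript, since 340 to 966 reads of *Socs2* were recovered in each of their libraries.

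*Socs1* was lower in DKI MDCs on day 6, and on day 3 the result depended on a single library and on the fit used. On day 6 it held 71.9, 70.6 and 75.1 RPKM in WT and 30.5, 25.6 and 14.6 RPKM in DKI, without overlap. The DKI mean was 32.5% of the WT mean, and the log2 difference was -1.64 ± 0.27 (limma adjusted p = 0.027). This call was lost without any 1 of the WT libraries (limma adjusted p between 0.0511 and 0.101) and without the filter (limma adjusted p = 0.0547). On day 3 it held 60.6, 90.5 and 79.3 RPKM in WT but 62.4, 29.3 and 26.5 RPKM in DKI, so that DKI replicate 1 lay within the WT range. The log2 difference was -1.03 ± 0.35 (limma adjusted p = 0.129), and -1.41 without that library (limma adjusted p = 0.0197). With that library kept, *Socs1* was called on day 3 in the fit of all 18 libraries.

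*Socs3* showed the same arrangement of libraries. On day 3 it held 51.2, 38.8 and 60.3 RPKM in WT and 57.3, 12.9 and 16.6 RPKM in DKI, with DKI replicate 1 again within the WT range. The log2 difference of -1.05 ± 0.54 was not called (limma adjusted p = 0.272), and without DKI replicate 1 it was -1.69 (limma adjusted p = 0.0184). On day 6 it held 49.9, 29.7 and 23.0 RPKM in WT and 16.8, 11.3 and 11.03 RPKM in DKI, without overlap. The difference of -1.28 ± 0.31 narrowly missed the threshold (limma adjusted p = 0.0571) and passed it with the replicate number as a block (limma adjusted p = 0.0291).

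The PIM kinases did not pass the test on either day. *Pim1* held 177, 140.3 and 181 RPKM in WT and 209, 70.5 and 129.6 RPKM in DKI MDCs on day 3, and 167.9, 126 and 218 against 124, 67.6 and 197 RPKM on day 6. The log2 differences were -0.41 (95% interval -1.35 to 0.53, limma adjusted p = 0.546) and -0.49 (-1.48 to 0.51, limma adjusted p = 0.473). These intervals include a fall of more than 2-fold as well as a rise, so that the genotypes cannot be called alike in *Pim1*. On day 6 *Pim1* was lower in DKI in each of the 3 same-numbered pairs, and with the replicate number as a block it was not called (limma adjusted p = 0.172).

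*Pim3* was the member whose DKI mean lay above the WT mean. It held 14.01, 10.1 and 11.3 RPKM in WT and 32.3, 9.26 and 28.1 RPKM in DKI on day 3, and 8.46, 9.98 and 14.7 against 21.6, 10.4 and 24.3 RPKM on day 6. DKI replicates 1 and 3 were above every WT library on both days, whereas DKI replicate 2 lay below the WT libraries on day 3 and among them on day 6. Within same-numbered pairs *Pim3* was higher in DKI in all 3 on day 6, and with the replicate block it was not called (limma adjusted p = 0.1500). The log2 difference was 0.76 on day 3 (95% interval -0.32 to 1.84, limma adjusted p = 0.334) and 0.66 on day 6 (-0.17 to 1.5, limma adjusted p = 0.259). Without DKI replicate 2 the day 3 difference was 1.29 (limma adjusted p = 0.0331).

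**Figure D2:**
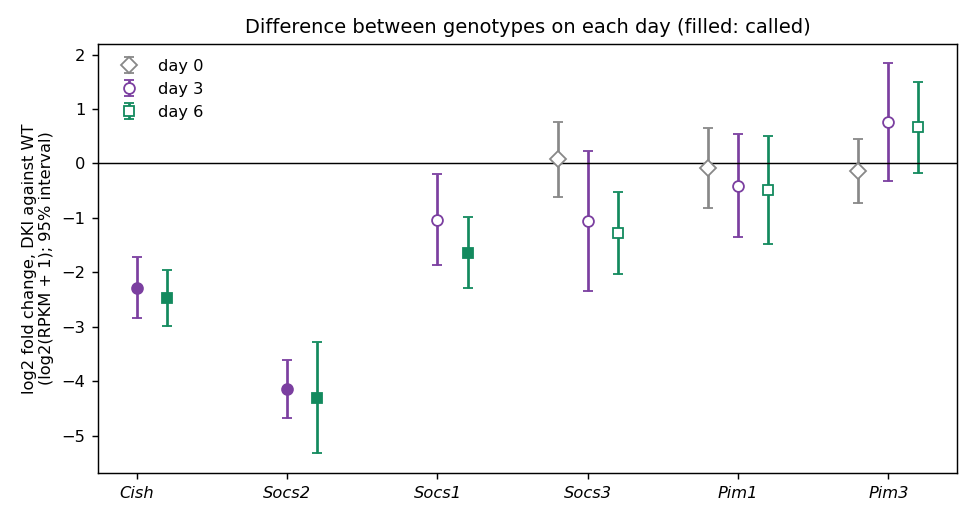
Difference between DKI and WT in log2(RPKM + 1), with 95% intervals from limma over 3 libraries per group, for each gene and day; filled symbols were called. Cish and Socs2 lie below 0 on days 3 and 6 and Socs1 is called on day 6, whereas the intervals of Pim1 and Pim3 include 0; Cish, Socs1 and Socs2 were under the filter on day 0.

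In counts, 2 of 6 members were called on day 3, both lower in DKI, where 7.42% of all fitted genes were called (4.21% lower and 3.21% higher). On day 6, 3 of 6 were called, all lower, against 7.54% of all genes (4.82% lower and 2.72% higher). WT and DKI did not overlap for *Cish* and *Socs2* on day 3 and for the 4 SOCS genes on day 6, while 36.3% and 37.2% of all genes did not overlap on these days. The median log2 difference of the 6 members was -1.04 on day 3 and -1.46 on day 6, beside -0.11 and -0.17 over all fitted genes. Centring the libraries on their medians took the day 6 median over all genes to -0.02 and changed the calls of that day from 474 lower and 268 higher to 285 lower and 323 higher, and it changed no call among the members in the comparisons of genotypes. On days 3 and 6, the library names of replicate 1 show an earlier year than all other names. Without both replicates 1, the log2 differences on day 6 were -2.35 for *Cish*, -4.44 for *Socs2* and -1.86 for *Socs1*, but with 2 libraries per genotype none was called (limma adjusted p = 0.0852, 0.0891 and 0.123) and 36 of all 9842 genes were, and on day 3 *Cish*, *Socs2* and *Socs1* were called.

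**Figure D3:**
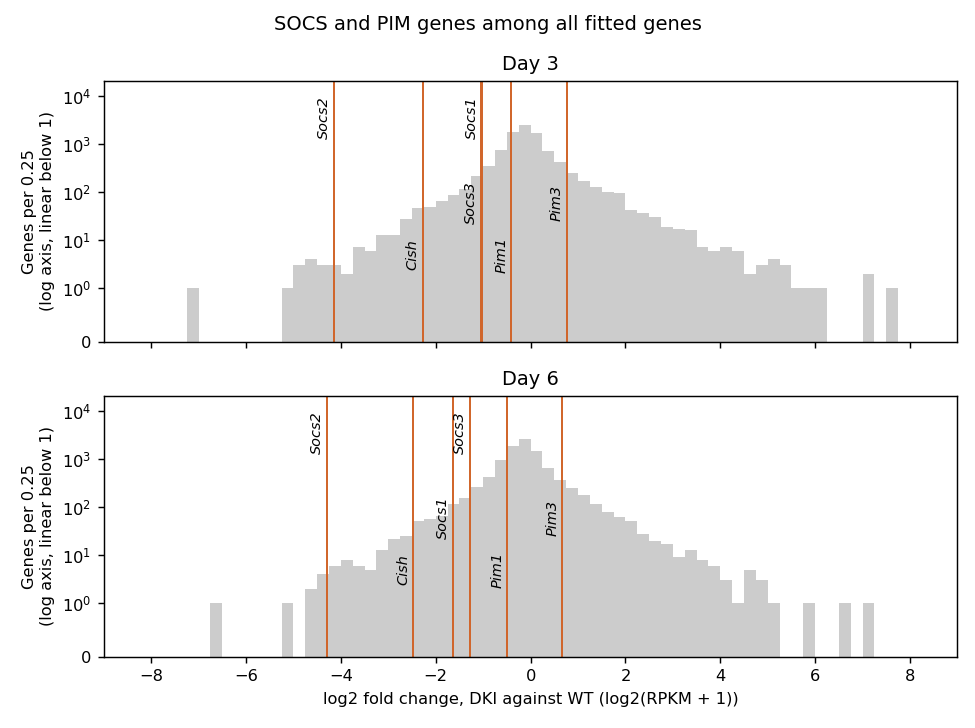
Histograms of the log2 difference between DKI and WT for all fitted genes on day 3 (9740 genes) and day 6 (9842 genes), in bins of 0.25 with a logarithmic count axis that is linear below 1; vertical lines mark the 6 members. Socs2 lies at the far lower end on both days (-4.14 and -4.30), and Pim1 lies within the bulk of genes (-0.41 and -0.49).

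The change from day 0 to day 3 was compared within each genotype. In WT cells *Cish* rose from a mean of 1.93 to 184 RPKM, 95.3-fold, and in DKI cells from 1.90 to 38.2 RPKM, 20.1-fold. *Socs1* rose 63.0-fold in WT and 35.5-fold in DKI. *Socs2* rose 1144-fold in WT, from 0.0892 to 102 RPKM, and 31.8-fold in DKI, from 0.153 to 4.85 RPKM; both folds rest on the few reads of day 0. These 3 genes passed the filter only through day 3 and so had to be higher there, and they were therefore read from the fit without the filter. In that fit the log2 changes in DKI cells were 3.89 ± 0.498 for *Cish* (limma adjusted p = 0.0084), 4.16 ± 0.36 for *Socs1* (limma adjusted p = 0.0041) and 2.32 ± 0.19 for *Socs2* (limma adjusted p = 0.004). In WT cells they were 6.13 ± 0.41, 5.12 ± 0.18 and 6.55 ± 0.17 (limma adjusted p of at most 0.0008).

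*Socs3* and the PIM kinases, which were already present on day 0, changed less. *Socs3* rose in WT by 1.54 ± 0.28 on the log2 scale (limma adjusted p = 0.0046), from a mean of 16.98 to 50.1 RPKM, without overlap between the days. In DKI its log2 difference between the days was 0.40 ± 0.53 (limma adjusted p = 0.571), and -0.23 without DKI replicate 1 of day 3. *Pim1* moved in the other direction: in WT it fell by 0.71 on the log2 scale, from 277 to 166.3 RPKM (limma adjusted p = 0.0422). That call is fragile, since it was lost without the filter, with median centring, in the fit of all 18 libraries and without 5 of the 6 libraries in turn (limma adjusted p between 0.0659 and 0.165). In DKI the log2 difference was -1.04 ± 0.43 (limma adjusted p = 0.104), which was called in the fit of all 18 libraries (limma adjusted p = 0.049) and, at -1.41, without replicate 1 of day 3 (limma adjusted p = 0.0329). *Pim3* was not called in WT (-0.52, limma adjusted p = 0.0958) or DKI (0.38, limma adjusted p = 0.530). It was called in WT without replicate 1 of day 0 (-0.72, limma adjusted p = 0.0261) and, in the other direction, in DKI without replicate 2 of day 3 (0.92, limma adjusted p = 0.0407).

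Between day 0 and day 3, 43.1% of all genes were called in WT cells (20.3% higher on day 3) and 34.2% in DKI cells (13.1% higher). *Cish*, *Socs1* and *Socs2* were called higher in both genotypes, but the filter fixed their direction, and nothing is read from these calls against the shares of all genes. Of *Socs3*, *Pim1* and *Pim3*, which were above the filter on both days, limma called *Socs3* higher and *Pim1* lower in WT cells and none in DKI cells. Between day 3 and day 6, 0 members and 0% of all genes were called by limma in WT (722 genes, *Socs2* among them, had an unadjusted p under 0.05), and 0 members and 0% in DKI (93 genes and no member), and limma voom also called 0 in both. In WT the fit of all 18 libraries called 16 genes and the fit without replicate 2 of day 6 called 1, none of them a member. The WT mean of *Socs2* was 1.59 times as high on day 6 as on day 3 (log2 0.64 ± 0.25, limma adjusted p = 0.649), and the DKI mean of *Socs3* was 2.22 times as high on day 3 as on day 6 (log2 -0.81 ± 0.55, limma adjusted p = 0.999), with overlapping libraries in both cases. Without replicate 1 of day 3 the ratio for *Socs3* was 1.13.

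**Figure D4:**
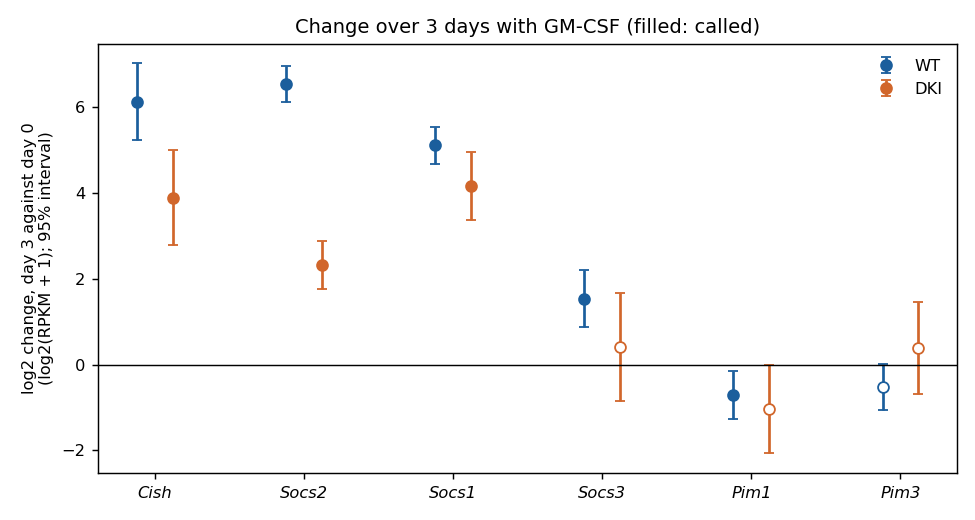
Change from day 0 to day 3 in log2(RPKM + 1) with 95% intervals from limma over 3 libraries per group, in WT (blue) and DKI (orange); filled symbols were called. The WT and DKI intervals do not overlap for Cish and Socs2 (6.13 and 3.89, 6.55 and 2.32), whereas they overlap for the other 4 genes; Cish, Socs1 and Socs2 passed the filter only through day 3.

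Whether the change differed between the genotypes was tested as an interaction, called at an adjusted p under 0.05. The rise of *Socs2* from day 0 to day 3 was smaller in DKI by 4.23 ± 0.26 on the log2 scale (limma adjusted p = 4.1e-05), and that to day 6 by 4.38 ± 0.48 (limma adjusted p = 0.0014). The call to day 6 was lost with limma voom (adjusted p = 0.144) and without replicate 1 or 3 (limma adjusted p = 0.0526 and 0.0854). For *Cish* the interactions were -2.23 ± 0.66 and -2.43 ± 0.65 (limma adjusted p = 0.109 and 0.0773). Its day 0 values spread widely but alike in same-numbered libraries of both genotypes, and with the replicate number as a block both were called (limma adjusted p = 0.0064 and 0.0054), in fits that called 1080 of 10212 and 1550 of 10353 genes. The interaction of *Cish* to day 6 was also called in the fit of all 18 libraries (limma adjusted p = 0.0371). For *Socs1* the interaction to day 3 was -0.96 ± 0.40 (limma adjusted p = 0.270) and that to day 6 was -1.56 ± 0.32 (limma adjusted p = 0.028), a call that was lost with a pseudocount of 0.1, limma voom, all 18 libraries or any replicate number left out (limma adjusted p between 0.0522 and 0.3005). For *Socs3* the interaction to day 6 was -1.36 ± 0.45 (limma adjusted p = 0.137, and 0.0398 with the block). *Pim1* and *Pim3* were not called in any interaction. Thus 1 of 6 members was called to day 3, where 2.91% of all genes were, 2 of 6 to day 6, where 2.8% of all genes were, and 0 between day 3 and day 6 (0% of all genes by limma and 0 by limma voom, with 89 genes and no member at an unadjusted p under 0.05). The interactions to day 3 and to day 6 share their day 0 libraries. *Socs1* and *Socs2* were low on day 0 and passed the filter only through MDCs. Their interactions thus largely repeat the genotype differences in MDCs. For *Socs2* these were -4.23 beside -4.14 on day 3 and -4.38 beside -4.30 on day 6, and for *Socs1* -1.56 beside -1.64 on day 6. The counts of interactions called are therefore no separate result.

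The pathway upstream of these genes was read from fixed lists. Among 14 genes of the GM-CSF receptor, JAKs and STATs, 3 were lower and 0 higher in DKI on day 3, and 4 lower and 0 higher on day 6 (median log2 difference -0.59 and -0.62, beside -0.11 and -0.17 over all fitted genes). As above, 4.21% of all genes on day 3 and 4.82% on day 6 were called lower. *Jak2* held 289, 321 and 294 RPKM in WT and 62.5, 65.3 and 82.4 RPKM in DKI on day 3, a log2 difference of -2.10 (limma adjusted p = 0.0048), and differed by -2.38 on day 6 (limma adjusted p = 0.0162). *Stat5a* held 30.2, 58.0 and 39.7 RPKM in WT and 9.37, 13.4 and 14.4 RPKM in DKI on day 3, a difference of -1.67 (limma adjusted p = 0.0224), and differed by -1.68 on day 6 (limma adjusted p = 0.0357). On day 3 neither *Jak2* nor *Stat5a* overlapped between the genotypes, but nor did *Stat5b* and *Csf2rb*, which were not called. The same held for 36.3% of all fitted genes on that day. *Stat5b* differed by -0.53 and -0.68 and was not called (limma adjusted p = 0.143 and 0.0767).

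For the receptor itself, the α chain gene *Csf2ra* differed by -0.75 on day 3 and -0.02 on day 6 (limma adjusted p = 0.223 and 0.973), and the shared β chain gene *Csf2rb* by -0.67 and -0.71 (limma adjusted p = 0.255 and 0.113). *Csf2rb2*, which was not reached by the rule for named genes and was added after its values were seen, was lower by 0.92 and 0.81 on the log2 scale (limma adjusted p = 0.0405 and 0.0410). Reads of *Csf2rb* and *Csf2rb2*, which are near-identical copies, may be shared, so that their levels are uncertain. *Stat4* was called on day 6, at -2.97 (limma adjusted p = 0.041), and on day 3 it differed by -2.52 without being called (limma adjusted p = 0.0709). On day 3 *Stat4* averaged 18.9 RPKM in WT and 1.92 RPKM in DKI. It passed the filter of that day only through WT, which fixed its direction (limma adjusted p = 0.132 without the filter).

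The next lists cover the rest of the family, its machinery and the PIM substrates. None of the other SOCS genes *Socs4*, *Socs5*, *Socs6* and *Socs7* was called on either day (4 fitted, medians -0.29 and -0.22), nor any of 4 genes whose proteins form the ubiquitin ligase with the SOCS box (medians -0.12 and -0.05). Of 12 other negative regulators of JAK-STAT signalling, 0 were called on day 3 and 2 on day 6, both lower (medians -0.19 and -0.21, beside -0.11 and -0.17 over all genes, with 4.82% of all genes called lower on day 6): *Ptpn1*, a phosphatase that acts on JAK2, by 0.93 (limma adjusted p = 0.041), and *Pias3* by 0.76 (limma adjusted p = 0.0426). Of 11 substrates of PIM kinases none was called on either day (medians -0.28 and -0.22).

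Of 11 other genes known as STAT5 targets, 4 were lower on day 3 and 1 on day 6, with 0 higher (medians -0.58 and -0.38, beside -0.11 and -0.17 over all genes, with 4.21% and 4.82% of all genes called lower). *Il2ra*, the gene of the α chain of the IL-2 receptor, held 173, 75.0 and 82.4 RPKM in WT and 1.82, 1.30 and 7.04 RPKM in DKI on day 3, and differed by -4.79 on day 3 and -5.20 on day 6 (limma adjusted p = 0.0095 and 0.0019). *Ccnd2*, a cyclin of the G1 phase, differed by -2.08 on day 3 (limma adjusted p = 0.0214) and -1.39 on day 6 (limma adjusted p = 0.135). *Bcl6*, a transcriptional repressor that STAT5 is described to repress, differed by -1.67 on day 3 (limma adjusted p = 0.0105) and -1.08 on day 6 (limma adjusted p = 0.096). The fourth gene called on day 3 was *Ccnd3*, at -1.22 (limma adjusted p = 0.0301), which was named after its values were seen.

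Of 9 fitted genes for other cytokine receptors that SOCS1 or SOCS3 are known to restrain, 1 was called on each day, higher in DKI (medians 0.59 and 0.60, beside -0.11 and -0.17 over all genes, with 3.21% and 2.72% of all genes called higher). This was *Csf3r*, the G-CSF receptor gene, with 4.67, 1.85 and 2.24 RPKM in WT and 89.3, 13.6 and 26.0 RPKM in DKI on day 3, a log2 difference of 3.14 (limma adjusted p = 0.0426), and with a log2 difference of 2.98 on day 6 (limma adjusted p = 0.0362). On day 6 it averaged 1.32 RPKM in WT and 20.2 RPKM in DKI and passed the filter only through DKI, which fixed the direction of that call, and without the filter it was not called (limma adjusted p = 0.0750). DKI replicate 1, the library of day 3 in which *Socs1* and *Socs3* lay within the WT range, held the highest *Csf3r* value. *Csf3r* is also a gene of neutrophils, whose marker sums in WT and DKI MDCs are given above, and the part of such cells was not tested.

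**Figure D5:**
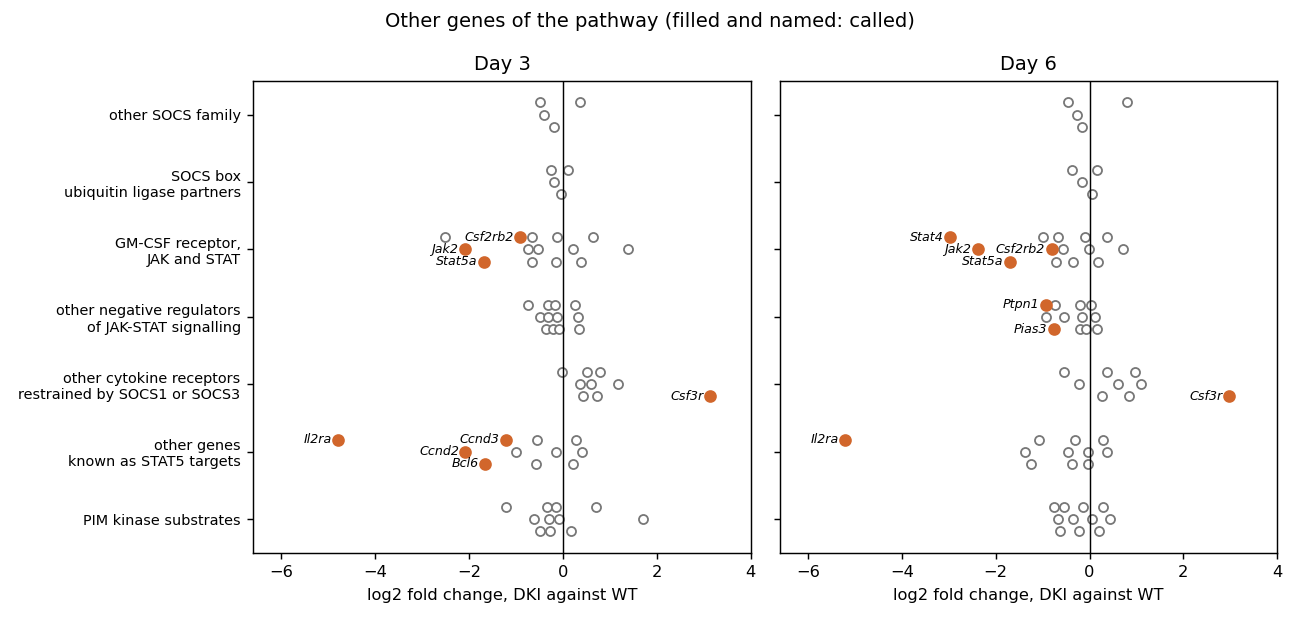
Log2 difference between DKI and WT on day 3 (left) and day 6 (right) for each fitted gene of 7 lists, with 1 point per gene and small vertical offsets for legibility; filled and named points were called. The called genes lie below 0 except Csf3r (3.14 and 2.98), which on day 6 passed the filter only through DKI, and the lists of other SOCS genes, ubiquitin ligase partners and PIM substrates hold no called gene.

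The genes most like each member in pattern were found by Pearson's r of log2(RPKM + 1) over the 18 libraries among 10411 other genes. For *Socs2* they were *Ccl17*, a chemokine gene, *Il2ra* and *Vdr*, the vitamin D receptor gene (r from 0.980 to 0.981), for *Cish* they were *Scimp*, *Eid2* and *Zfp318* (r from 0.974 to 0.975), and for *Socs1* they were *Sec22a*, *Scimp* and *Gas8* (r from 0.979 to 0.989). The libraries fall into day 0 and MDC libraries, and r includes the step between them. The likeness was weaker for *Socs3*, with *Cd82*, *Pnpla2* and *Fcho2* (r from 0.813 to 0.854), for *Pim1*, with *Ppp1r15a*, *Notch2* and *Osm* (r from 0.857 to 0.916), and for *Pim3*, with *Rcbtb1*, *Fut8* and *Fam234a* (r from 0.823 to 0.865). Among the members, *Cish*, *Socs1* and *Socs2* ran together (r from 0.893 to 0.957), whereas *Pim1* ran against *Cish* (r = -0.55).

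Ordered by mean RPKM, the members changed places between the states. On day 0 the order in both genotypes was led by *Pim1*, with *Pim3* and *Socs3* next and overlapping, then *Cish* and *Socs1*, which overlapped, and *Socs2* last. In WT MDCs on day 3 *Cish* (184 RPKM) and *Pim1* (166.3 RPKM) led with overlapping libraries, followed by *Socs2* (102) and *Socs1* (76.8), which overlapped, *Socs3* (50.1) and *Pim3* (11.8). In DKI MDCs on day 3 *Pim1* stayed first (136), above *Socs1* (39.4), *Cish* (38.2), *Socs3* (28.9) and *Pim3* (23.2), whose libraries overlapped, and *Socs2* (4.85) was last, with each of its libraries below every library of the other 5 genes. On day 6 *Cish* (175), *Pim1* (170.4) and *Socs2* (162) overlapped at the head of the WT order, and in DKI the order was *Pim1* (129.6), *Cish* (31.2), *Socs1* (23.6), *Pim3* (18.7), *Socs3* (13.0) and *Socs2* (7.83). In this DKI order the libraries of each gene from *Cish* to *Socs3* overlapped those of the next, whereas *Pim1* lay above and *Socs2* below all others.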

How the data were processed

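RNA-seq of 18 libraries was analysed, grouped by genotype and day from the sample labels. The authors aligned single-end reads to mm10 with Subread, counted them on RefSeq genes with featureCounts and deposited RPKM values. Versions, strandedness and the handling of reads shared between genes are not given in the sources used here. Of the gene identifiers, 20082 matched RefSeq annotation and 216 did not.

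Because RPKM of a gene moves in steps of 1 read, mapped reads per library were recovered from 1112 single-exon receptor genes (235 of 239 low values, 98.3%, were close to whole multiples of the smallest in their library). Whole reads, within 0.05 read, were then recovered for 100% of the 10417 genes above the filter in a group. Counts of few reads carry counting error, which is the only error such counts describe.

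Genes with a mean above 2 RPKM in a compared group were fitted as log2(RPKM + 1) with limma 3.58.1 (lmFit, eBayes with trend) in R 4.3.3 on the libraries compared, and p-values were Benjamini-Hochberg adjusted over all fitted genes. The steps were tested on simulated data. Alternatives were a pseudocount of 0.1, no filter, median centring, quantile normalization, the replicate block, all 18 libraries in 1 fit and leaving out libraries; limma voom on the recovered reads was added after seeing the data. The choice to read *Cish*, *Socs1* and *Socs2* between day 0 and day 3 from the fit without the filter was also made after seeing the data. edgeR, which the authors used, was not run: the deposited values are RPKM, and the reads recovered from them were fitted only with limma voom. Figures were drawn with Python 3.11.15 and matplotlib 3.10.9.

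Deviations from the group mean ran together in same-numbered libraries of both genotypes (r from 0.687 to 0.868 on day 0, 0.156 to 0.364 on day 3 and 0.336 to 0.412 on day 6). The pairing comes from the replicate numbers in the labels, and the paper states independent experiments. Nothing states which libraries came from separate mice, so p-values measure the spread between these libraries.

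The members and lists were chosen with earlier results of these data known. Named genes were the members, up to 3 called genes per list with the largest difference on day 3 or 6, *Stat5a*, *Stat5b*, *Csf2ra*, *Csf2rb* and *Jak2*, and the 3 genes most like each member.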

Additional observations from a re-analysis of the deposited data

Results flagged for a closer look

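The test of a difference in response between the genotypes, run without the replicate block, singled out *Socs2* and *Socs1*. With the block, *Cish* was also called to both days and *Socs3* to day 6. Those fits called 1080 of 10212 genes to day 3 and 1550 of 10353 genes to day 6. The values that follow are from the fits without the block. The change of *Socs2* from day 0 was smaller in DKI than in WT cells by a log2 difference of -4.23 on day 3 (limma adjusted p = 4.1e-05) and -4.38 on day 6 (limma adjusted p = 0.0014), and each DKI library lay below each WT library on both days. The call to day 6 was lost with limma voom (adjusted p = 0.144) and without replicate 1 or 3 (limma adjusted p = 0.0526 and 0.0854). The change of *Socs1* from day 0 to day 6 differed by -1.56 (limma adjusted p = 0.028, and between 0.0522 and 0.3005 where a pseudocount of 0.1, limma voom, all 18 libraries or any replicate number left out ended the call), again with each of 3 DKI libraries below each of 3 WT libraries on day 6. WT and DKI did not overlap for 36.3% of all fitted genes on day 3 and 37.2% on day 6. *Socs2* and *Socs1* passed the filter only through MDCs, and these interactions largely repeat the differences in MDCs given above.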

How the results depend on the processing

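Of the alternative values computed, 636 kept their direction and their side of the threshold, 24 lost a call, 16 gained one and 23 changed sign, the last for values that were not called. The calls of *Cish* and *Socs2* on day 3 held under every alternative run. On day 6 the calls of *Cish* and *Socs2* held under all alternatives except the fit without both replicates 1, which called 0 of 6 members and 36 of 9842 genes, and *Socs1* was lost without any 1 WT library (limma adjusted p between 0.0511 and 0.101) and without the filter (0.0547). On day 3 the number of members called ranged from 2 to 4 when 1 library was left out, with 4 without DKI replicate 1, while the genes called among all 9740 ranged from 197 to 718, the highest also without DKI replicate 1, and *Socs1* was also called in the fit of all 18 libraries (0.0257). That fit also called the interaction of *Cish* to day 6 (0.0371) and *Pim1* between day 0 and day 3 in DKI cells (0.049).

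With the replicate block, the interaction to day 3 called 2 members instead of 1 and that to day 6 called 4 instead of 2, while the calls over all genes rose from 297 to 1080 of 10212 and from 290 to 1550 of 10353, and *Socs3* on day 6 was called. Between day 0 and day 3 the numbers did not pair the libraries, and there the block called *Pim1* in DKI cells (limma adjusted p = 0.0323). The block changed no other call among the members. For the interaction to day 6, a pseudocount of 0.1 called 1 member and limma voom called 0 (adjusted p = 0.144 for *Socs2* and 0.3005 for *Socs1*); leaving out a replicate number gave 0 to 1, with 0 without replicate 1 or 3, and for the interaction to day 3 it gave 1 to 2. The cause was not tested.

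The log2 values that changed sign were small, and when libraries were left out they ranged as follows. Between the genotypes on day 0, *Socs3* ranged from -0.21 to 0.23, *Pim1* from -0.30 to 0.19 and *Pim3* from -0.34 to 0.032. Between day 3 and day 6 in WT, *Pim3* ranged from -0.32 to 0.050, *Socs1* from -0.22 to 0.065, *Pim1* from -0.18 to 0.21 and *Cish* from -0.13 to 0.029. In DKI, *Pim1* ranged from -0.47 to 0.33 and *Pim3* from -0.74 to 0.15, and *Pim1* was 0.0039 with median centring and 0.030 with quantile normalization. *Socs3* from day 0 to day 3 in DKI ranged from -0.23 to 0.81. The interactions between day 3 and day 6 ranged from -0.74 to 0.50 for *Socs3*, -0.29 to 0.22 for *Pim1*, -0.49 to 0.23 for *Cish* and -0.23 to 0.14 for *Pim3*.

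Depth did not limit the members on days 3 and 6, where each rested on at least 340 reads in every library, whereas *Socs2* on day 0 rested on 5 to 21 reads.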
